A study of Mus musculus with 39 samples.

Results

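A set of 10 circadian clock genes was followed in 3 tissues of mice, liver, skeletal muscle and white adipose tissue or WAT, in a letrozole model of polycystic ovary syndrome (PCOS). The 10 genes were Per1, Per2, Per3, Cry1, Cry2, Dbp, Tef, Nr1d1, Nr1d2 and Clock. They were found by gene name among the 30671 genes listed in the deposited tables, and all 10 passed the filter on low read numbers in each tissue. All mice were of the C57Bl6/J background. The PCOS model was made by treating prepubertal mice with letrozole, which blocks aromatase. PCOS mice then received either vehicle or roxadustat by mouth for 6 weeks from 12 weeks of age. Roxadustat stabilises hypoxia-inducible factor (HIF) by blocking the prolyl hydroxylases that lead to its breakdown. A control arm received vehicle and no letrozole is named for it. Liver and muscle each had 4 control, 4 PCOS vehicle and 4 PCOS roxadustat libraries, and WAT had 4, 6 and 5. These were 39 libraries from 18 mice, 1 library per mouse and tissue. The mouse numbers in the labels were shared between tissues, with 12 mice in both liver and muscle and 9 mice in all 3 tissues. The fat depot, the muscle and the time of day of tissue collection were not given in the sources used here.

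The mammalian clock is a transcriptional feedback loop. CLOCK pairs with BMAL1 (listed in these data under its older symbol, Arntl) and activates genes through E-boxes, among them the Per and Cry genes. PER and CRY proteins return to the nucleus and repress CLOCK and BMAL1. Nr1d1 and Nr1d2 encode REV-ERB alpha and beta, nuclear receptors that repress Arntl in a second loop. Dbp and Tef encode PAR bZIP factors that carry the rhythm to output genes through D-boxes, many of them in liver metabolism. In mouse liver these transcripts rise and fall over the day at different phases, with Arntl and Clock out of phase with Dbp and Per3.

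The genes lie on 9 chromosomes of mm39, the build named in the submitters' processing notes. Per1 (ENSMUSG00000020893) is at chr11:68986043-69000786 on the plus strand. Nr1d1 (ENSMUSG00000020889) is on the same chromosome at chr11:98658758-98666159 on the minus strand. Per2 (ENSMUSG00000055866) is at chr1:91343704-91387046 and Per3 (ENSMUSG00000028957) at chr4:151088109-151129122, both on the minus strand. Cry1 (ENSMUSG00000020038) is at chr10:84967564-85020928 and Cry2 (ENSMUSG00000068742) at chr2:92233991-92264388, both on the minus strand. Dbp (ENSMUSG00000059824) is at chr7:45354512-45359627 and Tef (ENSMUSG00000022389) at chr15:81686622-81711064, both on the plus strand. Nr1d2 (ENSMUSG00000021775) is at chr14:4230569-4265642 on the plus strand and Clock (ENSMUSG00000029238) at chr5:76357715-76452639 on the minus strand. Several overlap other genes. Nr1d1 shares 1075 bases with Thra and Dbp 737 bases with Sphk2, each on the opposite strand. Per3 lies within Camta1 on the same strand, Cry2 and Tef overlap lncRNAs on the opposite strand, and Clock overlaps a pseudogene. The labels describe directional and non-directional libraries without saying which was made, so reads of such partners cannot be told apart.

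The promoters below are shown because they hold the elements the loop works through. Each is the 250 bases before an annotated start, from RefSeq on build GRCm38.p6, written along the gene's strand. Capitals mark an E-box, CACGTG, in Per1, Cry1 and Tef (the Tef window belongs to its second annotated start), and a D-box, TTATGTAA, in Per3. The windows are chr11:69098699-69098948 (plus strand) for Per1, chr10:85185055-85185304 (minus) for Cry1, chr15:81811164-81811413 (plus) for Tef and chr4:151044666-151044915 (minus) for Per3.
Per1: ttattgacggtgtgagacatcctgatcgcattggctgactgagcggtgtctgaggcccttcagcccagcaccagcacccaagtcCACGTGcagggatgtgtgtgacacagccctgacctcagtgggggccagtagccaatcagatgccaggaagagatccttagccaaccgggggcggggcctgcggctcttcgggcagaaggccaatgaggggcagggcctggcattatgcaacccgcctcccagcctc
Cry1: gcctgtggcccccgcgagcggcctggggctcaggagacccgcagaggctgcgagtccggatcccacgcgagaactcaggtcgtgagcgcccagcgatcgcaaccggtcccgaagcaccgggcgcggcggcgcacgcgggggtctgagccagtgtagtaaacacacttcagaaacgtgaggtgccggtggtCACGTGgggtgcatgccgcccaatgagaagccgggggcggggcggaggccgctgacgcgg
Tef: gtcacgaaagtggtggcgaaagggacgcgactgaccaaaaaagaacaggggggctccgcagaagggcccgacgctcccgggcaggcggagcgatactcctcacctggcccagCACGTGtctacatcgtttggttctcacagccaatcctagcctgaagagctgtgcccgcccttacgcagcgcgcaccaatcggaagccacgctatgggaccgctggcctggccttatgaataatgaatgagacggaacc
Per3: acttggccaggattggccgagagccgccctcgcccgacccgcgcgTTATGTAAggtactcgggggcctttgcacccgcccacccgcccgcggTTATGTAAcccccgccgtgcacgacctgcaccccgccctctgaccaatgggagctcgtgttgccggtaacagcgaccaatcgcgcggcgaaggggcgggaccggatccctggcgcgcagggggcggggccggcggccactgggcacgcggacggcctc

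Of the 10 genes, 9 matched a promoter in the RefSeq table, and Per2 did not. An E-box (CACGTG, the same on both strands) was found in 3 of the 9, at -166 in Per1, at -60 in Cry1 and at -127 and -138 before the 2 starts of Tef. It was found in 6.86% of 27025 genes with windows of the same length. A D-box (TTATGTAA or TTACGTAA on either strand) was found in Per3, at -205 and -158, and in 1.1% of genes. The core of the HIF-binding element was searched as ACGTG and as GCGTG on both strands. ACGTG was found in 6 of the 9 (Per1, Cry1, Cry2, Dbp, Tef and Nr1d1) against 18.49% of genes, and every CACGTG contains it. GCGTG was found in all 9 against 30.85% of genes. These matches describe letters in a window and not bound sites.

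Libraries held between 12389970 and 19639244 recovered reads. Genes with reads ranged from 15334 to 19504 in liver, from 18571 to 20053 in muscle and from 14082 to 21621 in WAT. The lowest number in WAT was that of PCOS vehicle mouse 785, and the lowest in liver that of control mouse 801. The marker genes fitted the tissue names. The 5 hepatocyte markers summed to 54400 FPKM or more in every liver library and to at most 124 elsewhere. Muscle fibre markers summed to 53066 FPKM or more in muscle and to at most 289 in WAT, and adipocyte markers to between 3807 and 7137 in WAT. Macrophage markers in WAT summed to between 85.9 and 809 FPKM. In such bulk samples, fewer cells of a type and less RNA per cell cannot be told apart. Expression is given in FPKM, a fragment number divided by gene length and library size, so levels of different genes can be set side by side. Differences are on the scale of log2(FPKM + 0.5).

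Before the arms were compared, 2 mice stood out for low Per1, Per3 and Dbp in liver: control mouse 804 and roxadustat-treated mouse 808. In liver, Per1, which encodes a PER repressor, was at 0.498 FPKM in mouse 804, against 9.16, 13.5 and 19.8 in the other 3 control mice. Mouse 808 had 2.31 FPKM, against 9.47, 9.52 and 21.4 in the other roxadustat-treated mice. Each mouse was the lowest of its arm by a wide margin. Per3, another PER gene, followed in liver, at 6.36 FPKM in mouse 804 against 16.2 to 17.2 and at 2.80 in mouse 808 against 12.3 to 14.3. Dbp, an output activator, was at 52.3 FPKM in mouse 804 against 75.4 to 118 and at 23.6 in mouse 808 against 111 to 157. Its relative Tef was at 36.0 against 55.7 to 74.4 and at 20.4 against 53.9 to 62.4. Per2 and Cry2, both repressors of the loop, were also the lowest of the arm in both mice. Per2 was at 9.84 FPKM in mouse 804 and 6.39 in mouse 808, and Cry2 at 4.89 and 4.01.

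The activator moved the other way in these livers. Clock was the highest of its arm in both mice, at 2.64 FPKM in mouse 804 against 1.10 to 1.93 and at 2.76 in mouse 808 against 1.26 to 1.62. Arntl, its partner, was at 0.912 FPKM against 0.101 to 0.190 and at 1.27 against 0.0423 to 0.378. Nfil3, a repressor that competes with Dbp and Tef at D-boxes, was at 14.5 FPKM against 4.70 to 9.25 and at 15.4 against 5.69 to 6.76. Ciart, a repressor of CLOCK and BMAL1, was low, at 1.28 FPKM against 15.5 to 18.1 and at 1.54 against 14.5 to 30.3. Arntl, Nfil3 and Ciart were picked from a list of 20 further clock genes, which was mixed. In the liver of mouse 804, 8 of the list lay below the other mice of the arm, 6 above and 5 within. In that of mouse 808, 7 lay below, 7 above and 5 within. In mouse 804 all 10 clock genes lay outside the range of the other control livers, 8 below and 2 above. In mouse 808, 8 of 10 lay outside, 6 below and 2 above. The 2 livers differed for Cry1, the lowest of its arm in mouse 804 at 1.84 FPKM and the highest in mouse 808 at 2.50. Nr1d1 was above its arm and Nr1d2 below it in mouse 804, whereas both lay within the arm in mouse 808. Over all genes tested, 46.57% were the lowest or highest of the arm in the liver of mouse 804 and 62.65% in that of mouse 808. Both shares lay within those of the other livers, from 37.51% in mouse 785 to 67.5% in mouse 773. In the other 10 mice, 2 to 7 of the 10 clock genes were at an end of their arm in liver.

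In muscle, mouse 804 again lay outside its arm, and mouse 808 did so for no more genes than some other mice. All 10 clock genes were outside the range of the other control muscles in mouse 804, 7 below and 3 above, beside 50.33% of all genes. Per2 was at 0.672 FPKM against 2.14 to 4.34, Per3 at 2.86 against 6.79 to 7.55 and Dbp at 23.8 against 49.9 to 64.9. Clock was at 4.03 FPKM against 1.73 to 2.47 and Nr1d1 at 96.0 against 49.3 to 85.2. The direction was that of its liver for 9 of the 10 genes, Cry1 being the exception. In the muscle of mouse 808, 6 of 10 lay outside, beside 44.53% of all genes, where 2 to 7 of 10 were at an end of their arm in the muscles of the other 10 mice. Per1 was at 5.65 FPKM there against 8.94 to 12.8, whereas Dbp, Per2, Nr1d1 and Clock lay within the range of the arm. Its muscle and liver deviated in the same direction for 8 of 10 genes, Clock and Nr1d1 being the exceptions. Of 19 further clock genes, 12 went opposite ways in liver and muscle of mouse 804, and 8 did so in mouse 808. WAT of these mice was not analysed here.

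**Figure D1:**
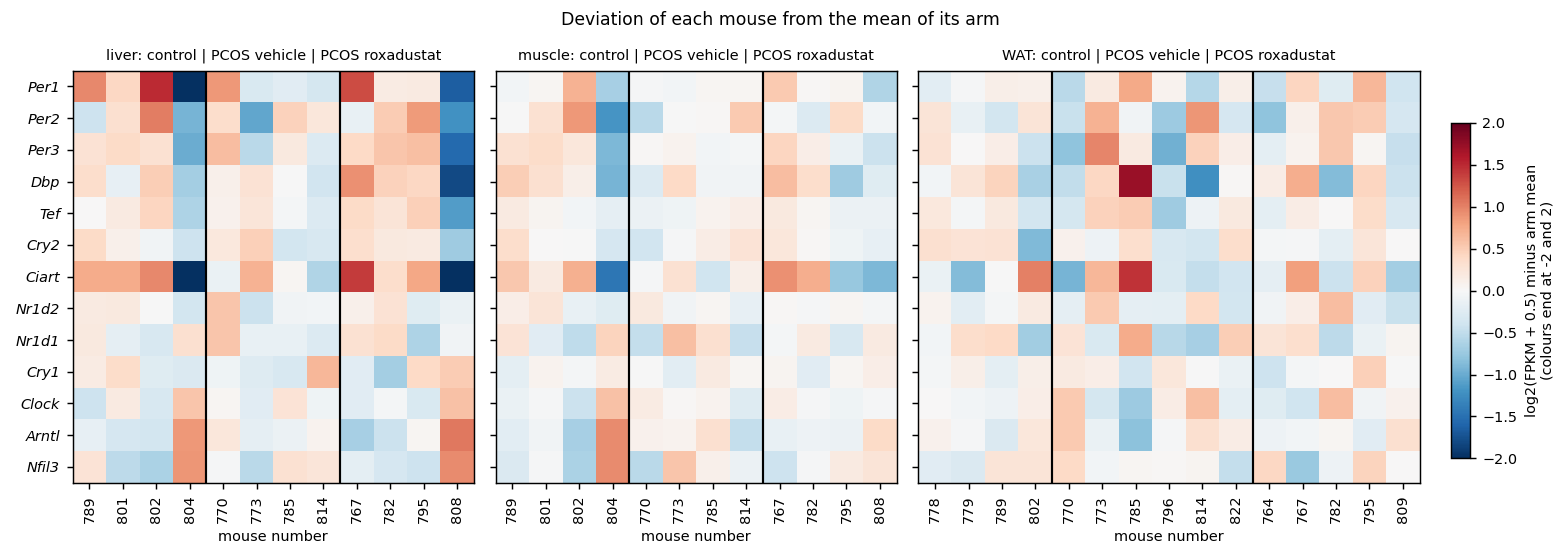
Deviation of each mouse from the mean of its arm for the 10 clock genes and for Ciart, Arntl and Nfil3, on the log2(FPKM + 0.5) scale, with mice in columns, genes in rows and colours ending at -2 and 2. Mice 804 and 808 are blue for Per1, Per3, Dbp and Tef in liver and red for Clock, Arntl and Nfil3.

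Genes downstream of the clock in liver were often at an end of the arm in both mice. Of all genes tested in liver, 46.57% were at an end in mouse 804 and 62.65% in mouse 808. The share of all genes at the same end in both mice was not counted. A list of 14 output genes was used, and 13 passed the filter in liver. The lists of this paragraph were chosen with earlier results of these data known. Of these, 9 were the lowest of the arm in both mice (Alas1, Coq10b, Gys2, Nampt, Noct, Por, Tspan4, Usp2 and Wee1), 3 were the highest in both (Cdkn1a, Dusp11 and Slc45a3), and 0 were at opposite ends. Usp2, which encodes a rhythmic ubiquitin protease, was at 2.22 FPKM in mouse 804 against 11.7 to 16.1 and at 0.761 in mouse 808 against 14.6 to 22.4. Wee1, a cell cycle kinase under E-box control, was at 1.60 FPKM against 4.08 to 7.02 and at 0.657 against 3.46 to 5.71. Other gaps were small. In mouse 808, Alas1 was at 60.5 FPKM against a lowest of 61.8 in the rest of its arm. Nampt was at 12.7 there against a lowest of 13.8, and Dusp11 at 11.7 against a highest of 11.1. Among 12 genes of feeding and fasting, 4 were lowest in both livers (Elovl6, Fasn, Ppargc1a and Srebf1) and Pdk4 was highest in both. Among 9 glucocorticoid-induced genes tested in liver, 0 were at the same end in both and 3 at opposite ends. Of the 9 tested in muscle, Fkbp5 and Zbtb16 were highest in both mice, Sgk1 was lowest in both and 1 was at opposite ends. Of 7 immediate early genes, Ier2 and Jun were lowest in both livers with 2 at opposite ends, and Fos, Jun and Junb were lowest in both muscles with 0 at opposite ends. In muscle, 2 of 12 output genes (Tspan4 and Usp2) were lowest in both mice and 3 were at opposite ends. The part of time of collection, feeding and stress in these values was not tested.

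The first question of the design was what the letrozole model changed. In liver, 0 of the 10 clock genes passed the test between PCOS vehicle and control mice, beside 0.82% of all genes tested (limma, adjusted p under 0.05). The test called 0 of 10 in muscle, beside 0.104%, and 0 of 10 in WAT, beside 0.346%. The unadjusted p was under 0.05 for 0 of the 10 in liver and muscle and for 1 in WAT, and voom on the recovered reads also called 0 in each tissue. Of the 10 genes, 5 had a higher mean of log2(FPKM + 0.5) in PCOS liver, 5 in PCOS muscle and 4 in PCOS WAT. The median differences were 0.004, 0.005 and -0.13 on this scale, beside 0.003, -0.007 and 0.002 over all genes. Means in FPKM can point the other way, as for Per1 in liver, at 8.63 in PCOS vehicle mice and 10.8 in control mice. The arms overlapped for all 10 genes in each tissue, whereas 7.09%, 3.78% and 3.15% of all genes in liver, muscle and WAT had arms that did not overlap.

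Among the repressors, Per2 in muscle had the largest estimate. It was at 0.672, 2.14, 2.75 and 4.34 FPKM in control mice and at 2.28, 3.53, 3.61 and 5.31 in PCOS vehicle mice. The arms overlapped, and the lowest value was that of mouse 804. The difference was 0.62 on the log2 scale (SE 0.38, 95% interval -0.23 to 1.46, adjusted p = 0.89 by limma), and it was 0.22 without mouse 804. Per3 in liver was at 6.36, 16.2, 16.4 and 17.2 FPKM in control mice and at 7.20, 8.77, 12.3 and 16.6 in PCOS vehicle mice. Of the control livers, 3 lay close to each other, and the PCOS livers were spread below and among them. The difference was -0.28 (SE 0.34, adjusted p = 0.786 by limma), and it was -0.61 without mouse 804. For Per1 in liver, values of 0.498 to 19.8 FPKM in the control arm and 6.21 to 15.1 in the PCOS vehicle arm left an interval from -1.47 to 1.94, too wide to show even a large change. Cry1, the cryptochrome with the later phase in mouse liver, differed by 0.08 in liver, -0.01 in muscle and 0.09 in WAT, and Cry2 by 0.02, 0.02 and 0.16.

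Neither output activator passed the test in any tissue. Dbp was at 52.3, 75.4, 108 and 118 FPKM in control livers and at 76.8, 99.3, 107 and 123 in PCOS vehicle livers. The lowest of the 8 was mouse 804. The difference was 0.25 (SE 0.27, adjusted p = 0.746 by limma), and it was 0.02 without mouse 804. In muscle, Dbp differed by 0.37 (SE 0.28, 95% interval -0.26 to 0.99, adjusted p = 0.916 by limma). In WAT, Dbp was at 22.5, 34.3, 42.3 and 48.4 FPKM in control mice and ranged from 10.4 through a median of 21.8 to 84.0 in PCOS vehicle mice. A single PCOS mouse, 785, was above all the controls and 4 of the 6 PCOS values fell under 26 FPKM. The difference was -0.50 with an interval from -1.49 to 0.50. Tef differed by 0.03 in liver, 0.13 in muscle and -0.32 in WAT.

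The smallest p-values among the clock genes were in WAT, for REV-ERB beta and Clock. Nr1d2 was at 14.6, 16.5, 17.8 and 19.3 FPKM in control WAT and ranged from 8.96 through a median of 10.2 to 17.0 in PCOS vehicle WAT. Of the 6 PCOS values, 4 lay below every control, and those of mice 773 and 814 lay among the controls. Means were 17.0 ± 1.98 FPKM (SD, n = 4) and 12.0 ± 3.37 (SD, n = 6). The difference was -0.52 (SE 0.20, 95% interval -0.96 to -0.08). By limma its unadjusted p was 0.0235 and its adjusted p 0.328, so it did not pass the test. It was between -0.63 and -0.45 with any 1 mouse left out. Clock was at 1.72, 1.79, 1.90 and 2.11 FPKM in control WAT and ranged from 1.5 through a median of 2.79 to 4.53 in PCOS vehicle WAT. Of the 6 PCOS mice, 5 were above the highest control, and mouse 785 was below the lowest. The difference was 0.48 (SE 0.26, 95% interval -0.08 to 1.05, adjusted p = 0.497 by limma). In the authors' deposited table these were also the 2 clock genes with an unadjusted p under 0.05, with adjusted p of 0.319 for Nr1d2 and 0.348 for Clock. Markers of other cell types moved with these values in WAT. All 5 macrophage markers were higher on average, with a median difference of 1.02 on the log2 scale, whereas mesothelial markers lay below control on average, 5 of 5, at a median difference of -1.70. The 5 endothelial markers summed to between 99.0 and 167 FPKM in control WAT and to between 167.1 and 286 in PCOS vehicle WAT, so the arms met without overlapping, and each was higher on average. Of these 15 markers 1 passed the test, Krt19, a keratin of mesothelium, which fell. Their part in the WAT values of Nr1d2 and Clock was not tested. Scaled to the sum of all FPKM, the median of all genes shifted by 0.27 in this comparison, and the differences became -0.23 for Nr1d2 and 0.84 for Clock, neither of which passed.

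The second question was what roxadustat changed in PCOS mice. The test called 0 of 10 clock genes in liver, in muscle and in WAT, beside 0.0% of all genes in each. With 0 genes called, the counts at an unadjusted p under 0.05 were 411 genes in liver, 320 in muscle and 266 in WAT, and 0 of the clock genes were among them. The authors' deposited tables called 3 genes in liver and 0 in muscle and WAT, and 0 clock genes. Arms did not overlap for 1.64%, 1.61% and 0.098% of genes in liver, muscle and WAT, and for 0 of the 10 clock genes.

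The largest estimate under roxadustat was that of Cry1 in liver. It was at 1.91, 2.04, 2.34 and 4.31 FPKM with vehicle and at 0.817, 1.31, 2.28 and 2.50 with roxadustat. The 2 lowest values were from treated mice, and the treated mouse with the most Cry1 was 808. The difference was -0.52 (SE 0.31, 95% interval -1.21 to 0.18, adjusted p = 0.9997 by limma), and it was -0.69 without mouse 808. Clock in liver differed by 0.18, and by -0.017 without mouse 808. Dbp in liver was at 111, 115 and 157 FPKM in 3 treated mice and at 23.6 in mouse 808, so its interval ran from -1.36 to 0.82. In muscle, the estimates of the 10 genes lay between -0.08 for Nr1d2 and 0.24 for Per2. The muscle intervals were the narrowest, from -0.23 to 0.25 for Tef and from -0.30 to 0.13 for Nr1d2. In WAT the estimates lay between -0.18 for Per2 and 0.26 for Clock. Nr1d2 in WAT was at 12.0 ± 3.37 FPKM (SD, n = 6) with vehicle and 12.0 ± 3.71 (SD, n = 5) with roxadustat.

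**Figure D2:**
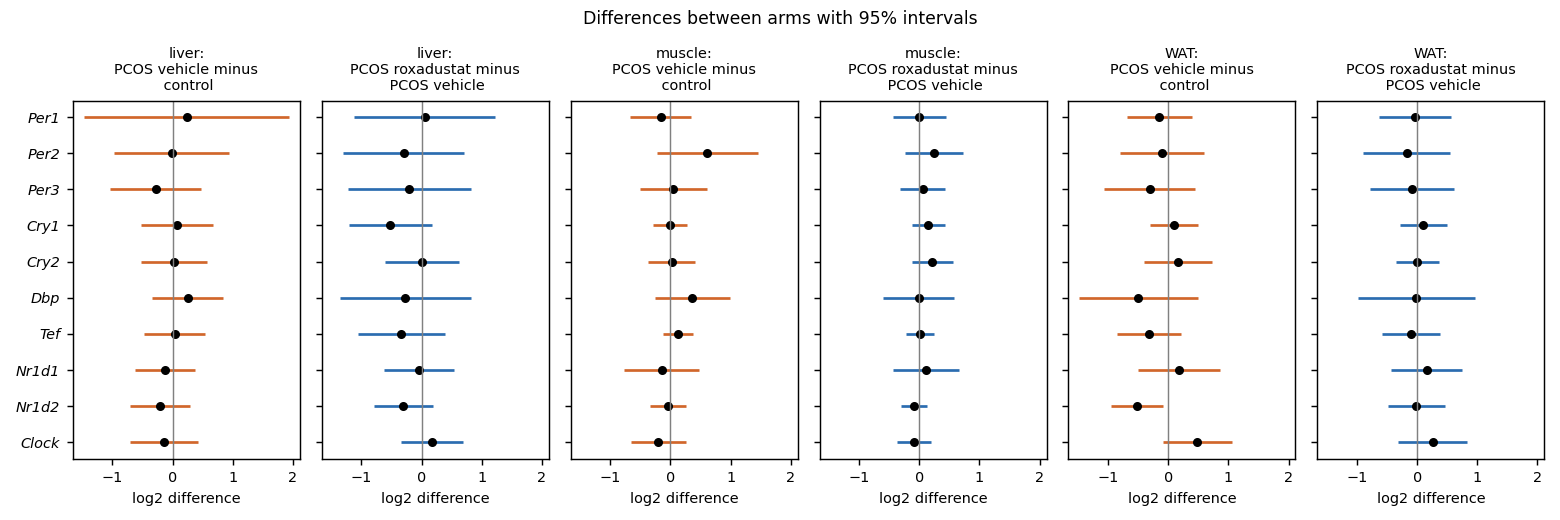
Log2 differences of the 10 clock genes in each tissue with 95% intervals, PCOS vehicle minus control and PCOS roxadustat minus PCOS vehicle. The widest interval is that of Per1 in PCOS liver, from -1.47 to 1.94, and the interval of Nr1d2 in PCOS WAT is the only one that does not reach 0.

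Whether an arm changed a clock gene more in one tissue than in another was tested as an interaction. For the PCOS model, 0 of 10 clock genes passed between liver and muscle, beside 0.504% of genes, between liver and WAT, beside 0.756%, and between muscle and WAT, beside 0.154%. With the mouse as a replicate block, the genes called fell from 124 to 17 between liver and WAT and from 25 to 0 between muscle and WAT, with 0 clock genes in each. These 2 block fits drew only on mice with libraries of both tissues, controls 789 and 802 and PCOS vehicle mice 770, 773, 785 and 814. The effects of pairing and of fewer mice on these counts cannot be told apart. For roxadustat, the 3 interactions called 0 clock genes, beside 0.0% of genes in each. The lowest adjusted p of a clock gene for the PCOS model was that of Clock between liver and WAT, with a difference of -0.63 (SE 0.37, adjusted p = 0.453 by limma).

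Other genes of the loop gave the same count. Of 20 further clock genes, 18 passed the filter in liver, 17 in muscle and 19 in WAT, and 0 passed the test in any of the 6 arm comparisons. Those with the lowest p in PCOS mice were Bhlhe41 and Fbxl21 in liver, Hlf and Bhlhe41 in muscle and, among those reported here, Hlf in WAT. Bhlhe41 differed by 0.97 in liver (adjusted p = 0.295 by limma) and by 0.52 in muscle (adjusted p = 0.783). Fbxl21 differed by -0.59 in liver (adjusted p = 0.438 by limma). Hlf differed by 0.53 in muscle (adjusted p = 0.643 by limma) and by -0.52 in WAT (adjusted p = 0.27). Bhlhe41 encodes DEC2, a repressor at E-boxes, Fbxl21 a ubiquitin ligase subunit that acts on CRY, and Hlf the third PAR bZIP factor. Among the 14 output genes 0 were called. Of 10 glucocorticoid-induced genes, the metallothioneins Mt1 and Mt2 fell in PCOS liver, with differences of -2.76 and -4.93 on the log2 scale. Both also respond to zinc. Of the feeding and fasting genes, Elovl6, a fatty acid elongase, fell by 3.03 in PCOS WAT. Of the immediate early genes 0 were called.

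The clock genes had different tissue levels. In liver the order of the means over 12 mice was Dbp at 97.2 ± 35.4 FPKM (SD), Tef at 54.4 ± 14.4, Nr1d1 at 46.4 ± 11.2, Nr1d2 at 23.9 ± 6.14, Per2 at 20.1 ± 9.66, Per3 at 12.0 ± 4.72, Per1 at 10.02 ± 6.42, Cry2 at 6.997 ± 1.804, Cry1 at 2.26 ± 0.893 and Clock at 1.64 ± 0.559. The steps from Dbp to Tef, from Nr1d1 to Nr1d2 and from Cry2 to Cry1 were larger than either SD of the pair, and the other neighbours in this order were closer than the larger SD. In muscle Nr1d1 led at 69.6 ± 18.6 FPKM, next to Tef at 58.6 ± 5.81 and Dbp at 57.3 ± 18.3, with Nr1d2 at 31.2 ± 3.57. Per1 and Cry2 were near 9 FPKM, Per3 at 6.16 ± 1.48 and Cry1 at 5.72 ± 0.666, and Per2 at 3.50 ± 1.40 and Clock at 2.25 ± 0.620 were the lowest. In WAT, over 15 mice, Nr1d1 was at 46.6 ± 14.7 FPKM, Dbp at 31.4 ± 18.4, Tef at 22.0 ± 5.72 and Nr1d2 at 13.3 ± 3.76. The other 6 genes were below 8 FPKM in WAT, with Cry1 the lowest at 1.57 ± 0.362.

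**Figure D3:**
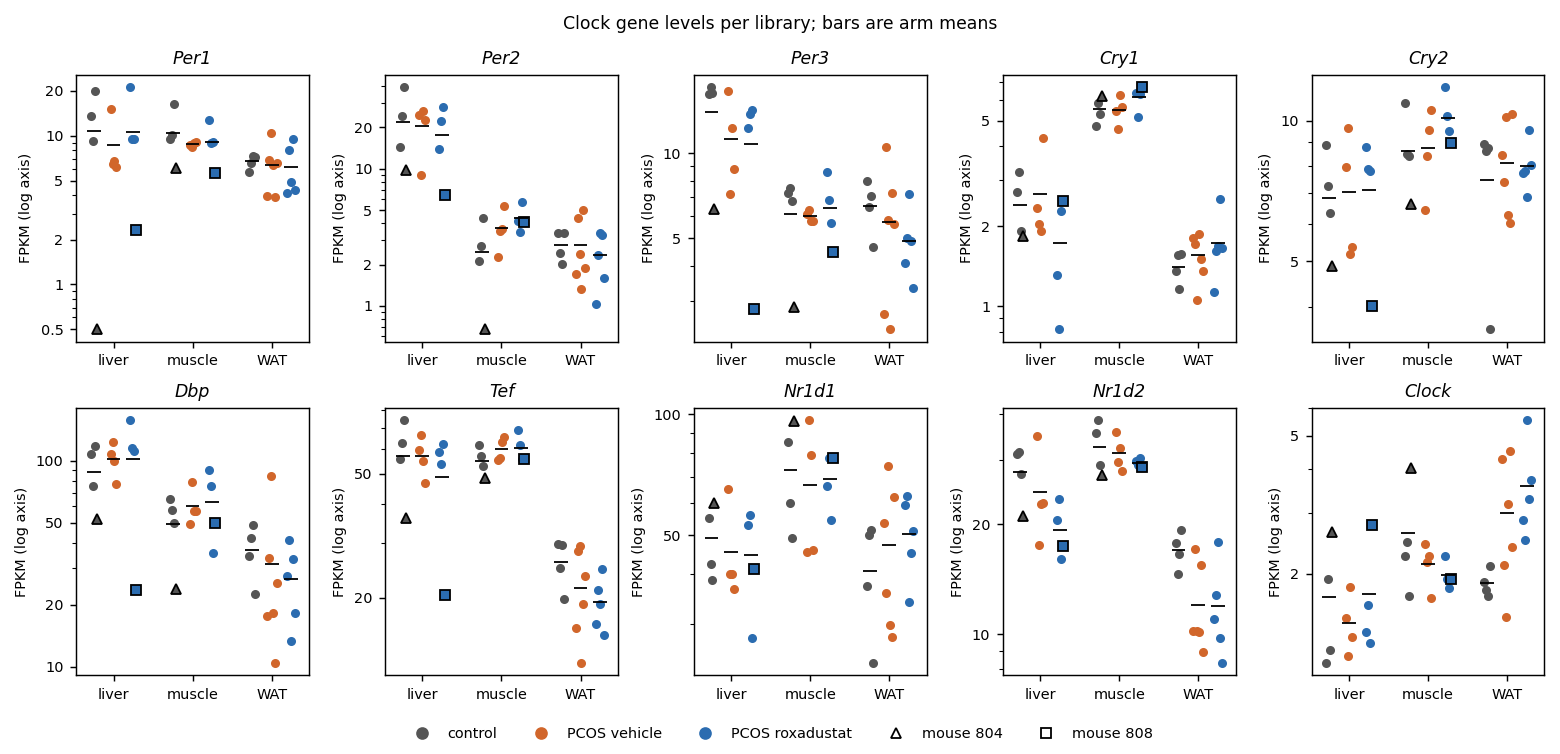
FPKM of the 10 clock genes in every library on a log axis, by tissue and arm, with a line at the mean of each arm. Per2 is highest in liver and Cry1 in muscle, and the triangle (mouse 804) and square (mouse 808) are the lowest liver points of their arms for Per1, Per3 and Dbp.

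Among control mice, tissues were compared with 4 libraries each. Between liver and muscle, 4 of the 10 clock genes passed, beside 71.3% of all genes tested. Of these, 3 were higher in liver and 1 lower, beside 34.8% and 36.6% of all genes, so clock genes were not called more often than genes at large. Per2 was the most different. It was at 9.84, 14.4, 24.3 and 39.7 FPKM in control livers and at 0.672, 2.14, 2.75 and 4.34 in control muscles, with no overlap. The difference was 2.91 on the log2 scale (SE 0.47, adjusted p = 0.000187 by limma). Per3 was higher in liver by 1.12 (SE 0.35, adjusted p = 0.0141 by limma) and Dbp by 0.87 (SE 0.33, adjusted p = 0.0352 by limma). Cry1 was lower in liver, at 1.84 to 3.19 FPKM against 4.76 to 6.21 in muscle, by -1.07 on the log2 scale (SE 0.19, adjusted p = 0.000368 by limma). With the mouse as a replicate block 6 passed, Nr1d1 and Clock joining as lower in liver. Without mouse 802, Per3 and Dbp no longer passed and Nr1d1 did, and without mouse 789 Dbp did not pass. Dbp also missed the threshold without the filter on low reads, with array weights and when scaled to the sum of all FPKM. That scaling added Cry2, Nr1d1 and Nr1d2 as lower in liver, and it shifted the median of all genes by -0.17.

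WAT was below liver for 6 of the 10 genes and below muscle for 4. Of all genes, 27.8% were called lower in WAT than in liver and 57.0% were called in either direction, and against muscle these shares were 33.0% and 68.9%. Against liver the largest gaps were those of Per2 at -2.61, Dbp at -1.23 and Tef at -1.09, with Per3, Nr1d2 and Cry1 between -0.98 and -0.59. The call of Cry1 was not stable, since it was lost without the filter, with voom and without mouse 778, 779, 789 or 801. The call of Per3 was lost without mouse 789 or 802. Against muscle they were Cry1 at -1.66, Tef at -1.08, Nr1d2 at -0.91 and Nr1d1 at -0.84, the last of which did not pass without mouse 804. WAT RNA was extracted with another kit than that of liver and muscle, so kit and tissue cannot be told apart. The scaling also mattered. Scaled to the sum of all FPKM, the median of all genes shifted by 0.63 between WAT and liver and by 0.47 between WAT and muscle. The genes that passed between WAT and liver were then Per2, lower in WAT by -2.04, and Clock, higher by 0.82, while Nr1d2 reversed to 0.016. Relative to the shifted median, Dbp was at -1.18, Tef at -1.04 and Nr1d2 at -0.63. Against muscle, Nr1d1 no longer passed under that scaling, and Cry1, Tef and Nr1d2 were lower. With the mouse as a replicate block, Cry1 and Nr1d2 no longer passed between WAT and liver (adjusted p = 0.26 and 0.129 by limma) and Per1 did. That fit drew its tissue difference from mice 789 and 802 alone, the only controls with libraries of both tissues. It is thus a weak check on the comparison of all controls.

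The deviation of a mouse from the mean of its arm was then compared between its own tissues. Between liver and muscle of 12 mice, Pearson's r was positive for all 10 clock genes, with a median of 0.507, beside a median of 0.033 over 11383 genes, of which 53.9% were positive. Per1 was highest, at r = 0.88 (exact permutation p = 0.0113) and rho = 0.60 (exact permutation p = 0.0727). Per3 followed at 0.71, Nr1d2 at 0.66 (exact permutation p = 0.0323; rho = 0.59, exact permutation p = 0.0664), Clock at 0.59, Per2 at 0.53 and Dbp at 0.48. Cry1, Tef, Nr1d1 and Cry2 lay between 0.23 and 0.32. Of the 10 genes, 2 had an unadjusted p under 0.05, beside 517 genes in all, or 4.54%. The further clock genes were less uniform, with 11 of 17 positive and a median of 0.244. Of these 17, 6 had an unadjusted p under 0.05. The smallest p was that of Csnk1e, at r = -0.85 (exact permutation p = 0.00268), and Ddb1 was at -0.71. After adjustment over all genes 0 passed, with an adjusted p of 0.992 for Per1. The smallest p that the 13824 reorderings within arms could give was 7.2e-05.

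Much of this rested on the mice 804 and 808. Without both, the median of the 10 was 0.383 and 7 were positive. Per1 fell to 0.63, Nr1d2 to 0.53, Clock to 0.45 and Dbp to 0.41. Per3 changed to -0.20, Cry2 to -0.25 and Tef to -0.76, so their relation rested on these 2 mice. Among the other mice of these arms, 802 and 767 were high in both tissues for Per1. Mouse 802 had 19.8 FPKM in liver and 16.3 in muscle, the highest of the control arm in each, and mouse 767 had 21.4 and 12.8, the highest of the roxadustat arm in each. PCOS vehicle mouse 770 had 15.1 FPKM in liver against 6.21 to 6.80 in the rest of its arm, but 8.68 in muscle, within the 8.40 to 9.09 of the arm.

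**Figure D4:**
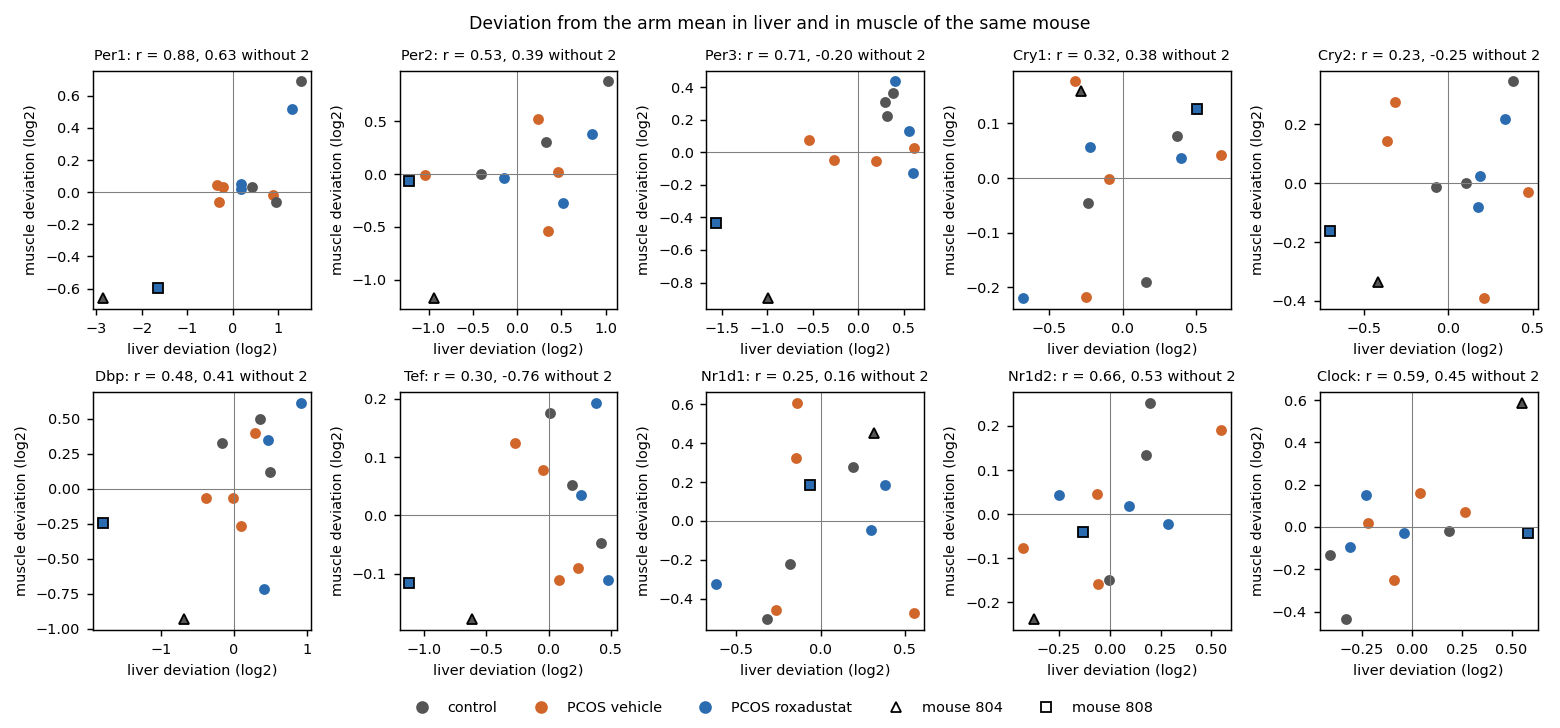
Deviation of each of 12 mice from the mean of its arm in liver (horizontal axis) and in muscle (vertical axis), on the log2(FPKM + 0.5) scale, for the 10 clock genes, with colours for arms and r with all mice and without 804 and 808 above each panel. The points of mice 804 and 808 lie at the lower left for Per1 and Per3, and the 804 point of Clock at the upper right.

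The same comparison was made between WAT and the other tissues of the same mice. Between liver and WAT of 9 mice, 5 of the 10 clock genes had a positive r, with a median of -0.001, beside 54.3% of all genes and a median of 0.047. Between muscle and WAT 7 of 10 had a positive r, with a median of 0.09, beside 42.1% of all genes and a median of -0.094. Mice 804 and 808 were not among these 9. The values ranged from -0.87 for Per3 to 0.42 for Dbp with liver, and from -0.68 for Nr1d2 to 0.74 for Per2 with muscle. The r of Per3 came from PCOS vehicle mice 770 and 773. Mouse 770 had the most Per3 of its arm in liver, 16.6 FPKM, and 2.69 in WAT, where mouse 773 had 7.20 in liver and the most of its arm in WAT, 10.5. Without these 2 mice r was -0.26. After adjustment over all genes 0 passed, and the smallest p that 288 reorderings could give was 0.00347.

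Within arms, the clock genes of liver varied between mice more than most genes did. The pooled SD on the log2 scale had a median of 0.486 over the 10 genes, at the 80.7th percentile of genes tested, and Per1 was at 1.37, at the 99.6th. In muscle the median was 0.342, at the 86.5th percentile. Without mice 804 and 808 the medians fell to 0.323 and 0.205, at the 50.8th and 49.98th percentiles. These mice were picked after seeing the data, because their clock genes lay far from their arms. Leaving them out favours a lower spread of clock genes against other genes, so the fall cannot show where the spread came from. Without mice 804 and 808, Per2 in liver, at 0.656, and Per1 in liver, at 0.591, were still at or above the 90th percentile. So were Per2, Dbp and Nr1d1 in muscle, at 0.411 to 0.439. In WAT the median was 0.425, at the 70.4th percentile, with Dbp at 0.788 and Cry1, at 0.247, at the ends. In control WAT, mouse 802 was the lowest or highest for 9 of 10 clock genes, beside 61.43% of all genes, with Cry2 at 3.58 FPKM against 8.63 to 8.90.

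Dbp was taken as the reference for genes of like pattern across the libraries of a tissue. These values describe libraries that share their arms and carry no test. In liver, Tef had the highest r with Dbp of 9651 genes, at 0.94 over 12 libraries, followed by Usp2 at 0.94 and Crygn, Ngef, Gstm1 and Cnmd. Without mice 804 and 808, Tef was at 0.56 and Usp2 at 0.49, whereas Crygn was at 0.81 and Gstm1 at 0.74. Per3 went from 0.83 to -0.12, and Clock from -0.82 to -0.51. Lgalsl was the most opposed, at -0.96 with all libraries and -0.92 without the 2 mice. In muscle, Klhl38, Rsad1 and Ciart were most like Dbp, at 0.93, 0.92 and 0.90, and Per3 was the highest of the other clock genes named above at 0.86, with or without the 2 mice. In WAT, Ppm1m, Dxo, Bcat2, Ivd and Asns were most like it, at 0.93 to 0.96 over 15 libraries. Clock was at -0.92 with Dbp there, near the most opposed genes Crk, Ids and Arhgap18 at -0.95 to -0.94, and Nr1d1 was at 0.74. Mouse 785, with the highest Dbp in WAT, was the lowest or highest of its arm for 63.56% of all genes, so these WAT values share a library that stood apart as a whole.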

How the data were processed

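Poly-A RNA of 39 libraries was measured, with 300 ng of total RNA as input per the labels' protocols. Per the submitters' processing notes, the authors used CASAVA 1.8, HISAT2 2.0.5, mm39 and DESeq2 1.20.0. The read counter and annotation release were not given in the sources used here. The deposited tables hold FPKM, and the authors' log2 fold change and p-values, per the file headers. FPKM times length gave whole reads for 100% of values (tolerance 0.001), and the FPKM of all tissues shared 1 set of size factors. From these reads, genes needed 10 reads in as many libraries as the smallest group and 15 in total. Arms and tissues were compared with limma 3.58.1 in R 4.3.3 on log2(FPKM + 0.5), with Benjamini-Hochberg adjustment over all genes, called at an adjusted p under 0.05. Mice are the replicates. Same-numbered samples of different tissues come from 1 mouse, per the labels, which pairs the tissues. Correlations used residuals from arm means and exact two-sided permutation within arms (SciPy 1.17.1, NumPy 2.4.6, pandas 2.3.3). Figures used matplotlib 3.10.9 in Python 3.11.15. Tests were checked on simulated data. The clock genes, the gene lists and the naming rule (all 10 genes, then called list genes or the lowest p) were chosen with earlier results of these data known, and leaving out mice 804 and 808 together was chosen after seeing the data. Alternatives were the pseudocount, the filter, scaling to the FPKM sum, voom on recovered reads, array weights, a joint fit of 3 arms, a replicate block and each mouse left out. The values of some genes of these lists are not reported here.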

Additional observations from a re-analysis of the deposited data

Results flagged for a closer look

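In 6 of 90 groups of 4 to 6 libraries, the highest or lowest value of a clock gene lay far from the rest of its arm, where chance gives about 1 in 20. Per1 in PCOS vehicle liver was at 15.1 FPKM in mouse 770, against 6.21 to 6.80 in the other 3. Nr1d1 in the same liver was at 65.3 FPKM, against 36.7 to 40.0. Per3 in control mouse 804 was at 6.36 FPKM in liver, against 16.2 to 17.2, and at 2.86 in muscle, against 6.79 to 7.55. Cry2 in control WAT was at 3.58 FPKM in mouse 802, against 8.63 to 8.90. Dbp in PCOS vehicle WAT was at 84.0 FPKM in mouse 785, against 10.4 to 33.5. Of the 6 groups, 2 were flagged for mouse 804, 0 for mouse 808 and 4 for other mice. The low Per1 of mouse 804 in liver did not meet this measure, since the other control livers were spread from 9.16 to 19.8 FPKM.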

How the results depend on the processing

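The count of clock genes called was 0 in all 6 arm comparisons and all 6 interactions under every setting run. Counts of all genes called moved more. For the PCOS model in liver (115 genes), the joint fit of 3 arms called 21. In muscle (14), no filter called 5 and array weights 27, and in WAT (54) no filter called 10, voom 23, array weights 940 and the joint fit 141. Roxadustat in muscle (0) gave 2 without the filter. Of the PCOS interactions, liver with muscle (76) gave 35 at a pseudocount of 0.1 and 21 with voom. Liver with WAT (124) gave 334 scaled to the FPKM sum, 30 with voom, 633 with array weights and 17 with the replicate block. Muscle with WAT (25) gave 7 at a pseudocount of 0.1, 16 scaled to the sum, 4 with voom, 687 with array weights and 0 with the replicate block. In control mice, WAT against liver gave 5625 genes with the replicate block in place of 8444, and 2 clock genes in place of 6 scaled to the sum. The replicate block changed no other call of a clock gene than those given above. In every comparison with WAT, the block drew only on mice with libraries of both tissues, so these fits used fewer mice.

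With array weights, Clock in liver (-0.035) and Per2 in muscle (-0.0078) reversed under roxadustat, and Nr1d2 between WAT and liver reversed to 0.016 scaled to the sum. Without the 2 mice farthest from the median, r reversed for Per3 (-0.20), Cry2 (-0.25) and Tef (-0.76) between liver and muscle. Between liver and WAT it changed sign for 7 of the 10, to 0.18 for Per1, 0.16 for Per2, -0.06 for Cry1, -0.56 for Dbp, -0.50 for Tef, 0.69 for Nr1d2 and 0.69 for Clock, and between muscle and WAT for Clock, to 0.0064. The spread medians without mice 804 and 808 were 0.323 in liver and 0.205 in muscle.

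With each mouse left out in turn, genes called for the PCOS model ranged from 77 to 131 in liver, from 6 to 22 in muscle and from 11 (without control 802) to 330 (without PCOS vehicle 785) in WAT. Those for roxadustat in muscle ranged from 0 to 1. The interactions for PCOS ranged from 39 to 67, from 77 to 389 and from 1 to 54 genes, and those of liver with muscle and of liver with WAT for roxadustat from 0 to 1. Clock in liver under roxadustat ranged from -0.017 to 0.28, and Per2 in WAT from -0.32 to 0.024. Clock genes called ranged from 3 to 4 for liver against muscle, from 4 to 7 for WAT against liver and from 4 to 5 for WAT against muscle. The cause of these changes was not tested.

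With 4 to 6 mice an arm, small changes could not be shown for widely spread genes such as Per1, Dbp and Per2 in liver. For these, the limit was about the distance from the estimate to the end of its interval. The intervals cover these mice and not differences in depot, kit or time of collection.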
